A study of Mus musculus with 9 samples.

Results

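The genes described here encode ATP-dependent chromatin remodelers, their dedicated subunits, and bromodomain proteins outside those complexes, measured in mouse embryos after knockdown of Hdac1 and Hdac2 together or of Sin3a. They were taken by symbol, as every gene of the table whose name begins with Smarc, Arid1, Arid2, Arid5, Chd1, Chd2, Chd5 to Chd9, Ino80, Brd and a digit, Actl6, Dpf, Baz, Bptf, Pbrm1 or Bcl7. The rule found 52 of 20087 named genes and used no measured value, though it was chosen with earlier results of these data known. Of the 52, 50 passed the filter on low values (a value of 10 or more in 3 of the 9 libraries) and were tested, and Arid5b and Smarca1 did not pass it. The other names the rule brings in by spelling are Arid5a, a DNA- and RNA-binding factor outside remodelers, and Smarca5-ps, a transcribed processed pseudogene of Smarca5.

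Embryos on the B6D2F1 background had been injected as zygotes with siRNA and were collected at E2.75, close to the morula stage. Hdac1/2 cKD embryos received siRNA against Hdac1 and Hdac2 (a co-knockdown), Sin3a KD embryos siRNA against Sin3a, and NC embryos a nonspecific control siRNA and are labelled wild type. Each group had 3 libraries of polyadenylated RNA, each from a pool of 60 embryos, so a library averages over embryos and over all their cells. The knockdowns are transient and partial, and a change in a pool cannot be told apart into fewer cells of a type and less RNA per cell. No label says whether the pools of a group were collected separately. The p-values therefore cover only the spread among these libraries, which may be technical.

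Remodelers use ATP to slide, evict or exchange nucleosomes, and fall into the SWI/SNF, ISWI, CHD and INO80 families by their ATPase. The ATPase works with subunits that choose where it acts, and several subunits come as sets of paralogs of which a complex holds only one. Bromodomains bind acetylated lysines, the mark that Hdac1 and Hdac2 remove. Sin3a organises a corepressor complex to which these deacetylases belong, and remodelers of the SWI/SNF and ISWI families are needed in mouse embryos by the time of implantation.

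The values are counts per gene that the authors normalised with DESeq2, and sum to between 11.9 M and 13.5 M per library. Hdac1 averaged 943 ± 152 normalised counts in Hdac1/2 cKD embryos and 1910 ± 639 in Sin3a KD embryos, against 5569 ± 661 in NC embryos (SD, n = 3 each). Hdac2 averaged 305 ± 97.2 in Hdac1/2 cKD embryos and 2060 ± 67.6 in Sin3a KD embryos, against 2286 ± 242 in NC embryos. Sin3a averaged 2044 ± 174.5 in Hdac1/2 cKD embryos and 431 ± 83.6 in Sin3a KD embryos, against 1484 ± 283 in NC embryos. Its Hdac1/2 cKD libraries lay all above NC, without passing the test described below (limma, log2 0.48, adjusted p = 0.0693). Hdac1 was thus low in Sin3a KD embryos as well. NC replicate 3 stood apart from the other libraries on the first principal component of all genes tested (96.6, with the others between -50.3 and 20.7). It was the shallowest by its smallest steps (8.38 M reads estimated, with the others at 10.3 M to 16.8 M). That estimate is rough, as only 64.2% of its small values came near whole steps. It also had the most genes at 0 (28.4%, with the others at 13.2% to 23.4%). On the first and second components of the tested members alone, NC replicate 3 lay at 0.10 and -2.07. There NC replicate 1 lay at 0.59 and -1.89, and NC replicate 2 at 1.01 and -1.65. Results that rest on NC replicate 3 are given with and without it. Changes that passed without it but not with all 9 libraries are not among the 24 member calls, and for them other alternatives are not shown. Of the 8 cumulus and granulosa markers found, 3 passed the filter, and the sums of both knockdowns lay apart from NC only when Amhr2 was left out. Without Amhr2 these markers summed to 65.8 to 74.5 normalised counts in Hdac1/2 cKD embryos and 50.7 to 61.1 in Sin3a KD embryos, against 12.3 to 33.2 in NC embryos. Of their defining genes, Cyp19a1 was at 0 in 7 of 9 libraries and Has2 in 6. With Amhr2 the sums overlapped, at 310 to 373 in Hdac1/2 cKD embryos and 270 to 421 in Sin3a KD embryos, against 339 to 427 in NC embryos. The 8 oocyte markers summed to 320 to 369 and 324 to 354 in these knockdowns, against 244 to 343 in NC embryos. The 8 inner cell mass and pluripotency markers summed to 26870 to 29690 in Hdac1/2 cKD embryos and 37790 to 41670 in Sin3a KD embryos, against 38480 to 41320 in NC embryos, and the 8 morula and trophectoderm markers to 7523 to 8100 and 9721 to 11140, against 10930 to 14380. The part of these cell markers in the results was not tested.

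Most remodeler and bromodomain genes differed by less than 0.5 on the log2 scale between the groups, and the genes that passed the test belonged to several complexes. In Hdac1/2 cKD embryos relative to NC, 4 members rose (Arid2, Brd7, Chd9 and Dpf1), 5 fell (Bcl7a, Bptf, Brd9, Dpf3 and Smarca5) and 41 did not pass limma's moderated test, run on log2(value + 1), at a p of 0.05 adjusted over all genes tested. That is 18% of the 50 tested members, beside 15.6% of all 13343 genes tested (7.81% higher and 7.8% lower). In Sin3a KD embryos relative to NC, 3 rose (Chd1, Dpf1 and Smarcd2), 2 fell (Chd2 and Ino80) and 45 did not pass, or 10% of members beside 7.96% of all genes (3.6% higher and 4.36% lower). Both knockdowns are set against the same 3 NC libraries, and Dpf1 is the member called in both. In Hdac1/2 cKD relative to Sin3a KD embryos, 3 members were higher (Arid1a, Brd8 and Chd2), 7 were lower (Arid1b, Baz1a, Baz2a, Bptf, Chd1, Dpf3 and Smarca5) and 40 did not pass, or 20% beside 17.3% of all genes (8.49% higher and 8.78% lower). In this fit the shares lie near the background, so they are no result about the members as a set. In other fits they moved to either side of it. For Hdac1/2 cKD against NC they were 6% beside 9.53% without Hdac1/2 cKD replicate 2, and 28% beside 14.5% without NC replicate 3.

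The 3 libraries of one group lay all above or all below those of the other for 18 of 50 members in Hdac1/2 cKD against NC, beside 33.1% of all genes. For Sin3a KD against NC this held for 20 members, beside 27.1%, and for Hdac1/2 cKD against Sin3a KD for 24, beside 39.7%. Median log2 fold changes of the members were -0.03, 0.03 and -0.05 in these comparisons, where those of all genes tested were 0.03, 0.03 and 0.01. In size, the median absolute log2 fold change of the members was 0.214 for Hdac1/2 cKD against NC, 0.268 for Sin3a KD against NC and 0.25 for Hdac1/2 cKD against Sin3a KD, beside 0.37, 0.33 and 0.38 over all genes. In each comparison 41 of 50 members stayed within 0.5 on the log2 scale. Changes of at least 1 were seen in 4% to 6% of members and in 12.8% to 16.9% of all genes. The members are also more abundant than most genes, with a median level of 1150 normalised counts against 228 for all genes tested. Among genes with a mean of at least 1000, a level chosen after the data were seen, 25.9%, 15.4% and 29.3% were called in the 3 comparisons, and of the 26 members at that level 4, 3 and 8 were.

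**Figure D1:**
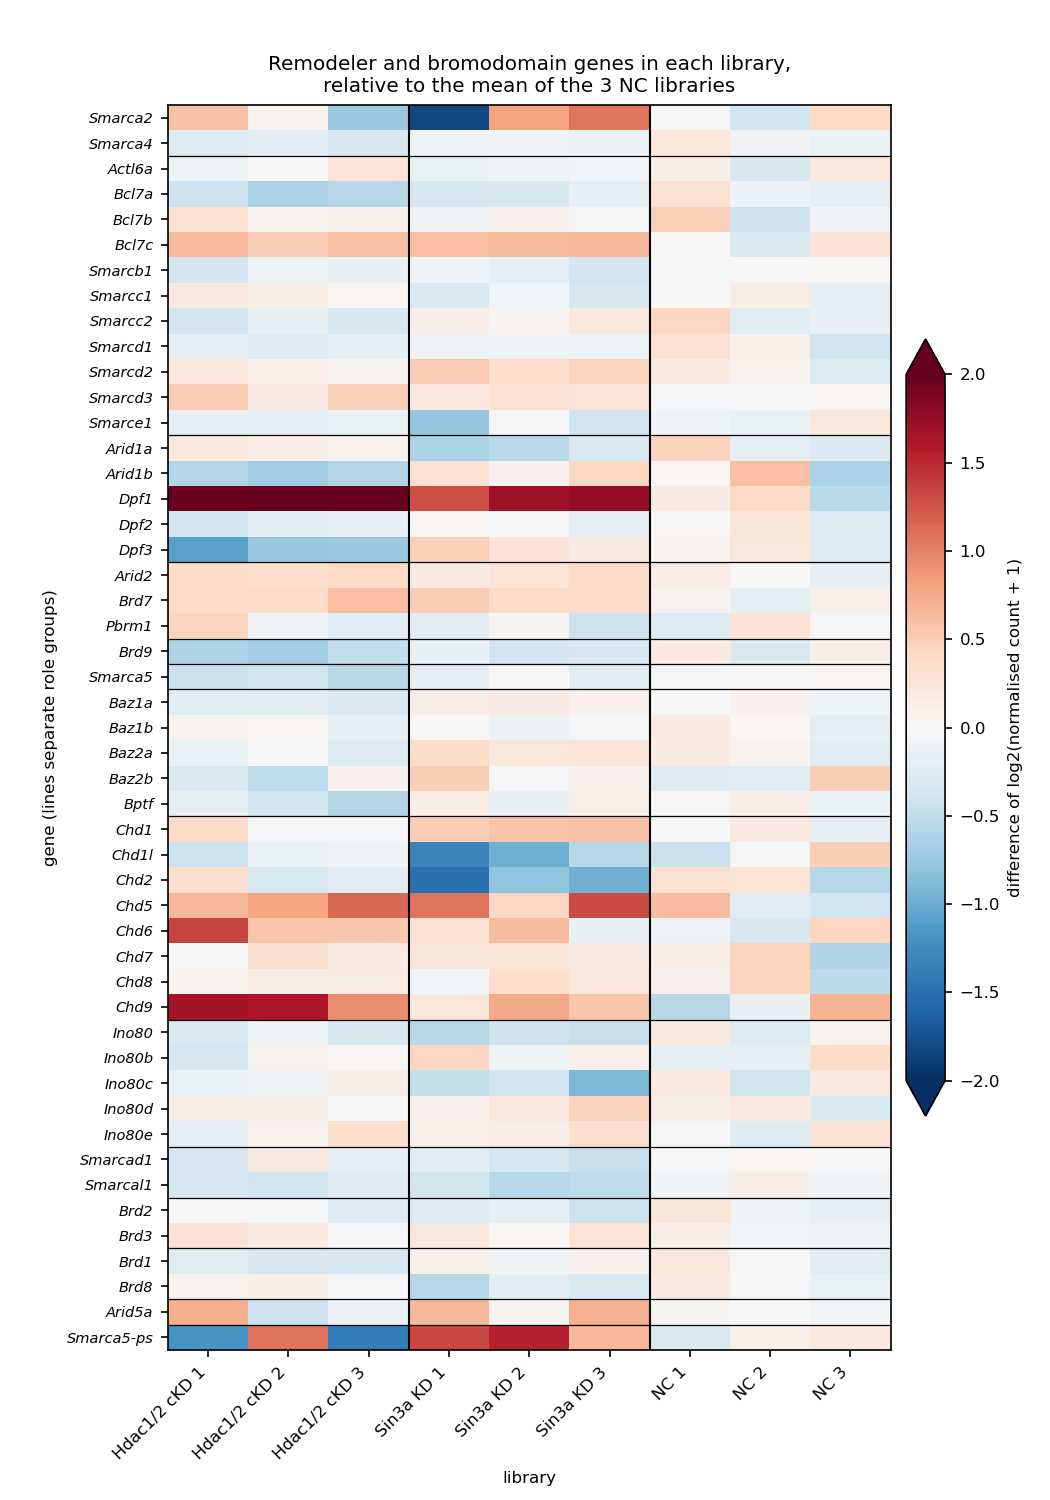
Each row is one of 49 tested members and each column a library, coloured by its log2(normalised count + 1) minus the mean of the 3 NC libraries. Colour runs by row rather than by block: Dpf1 is high in all 6 knockdown libraries, Dpf3 low in the 3 Hdac1/2 cKD libraries, and most rows are pale.

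**Figure D2:**
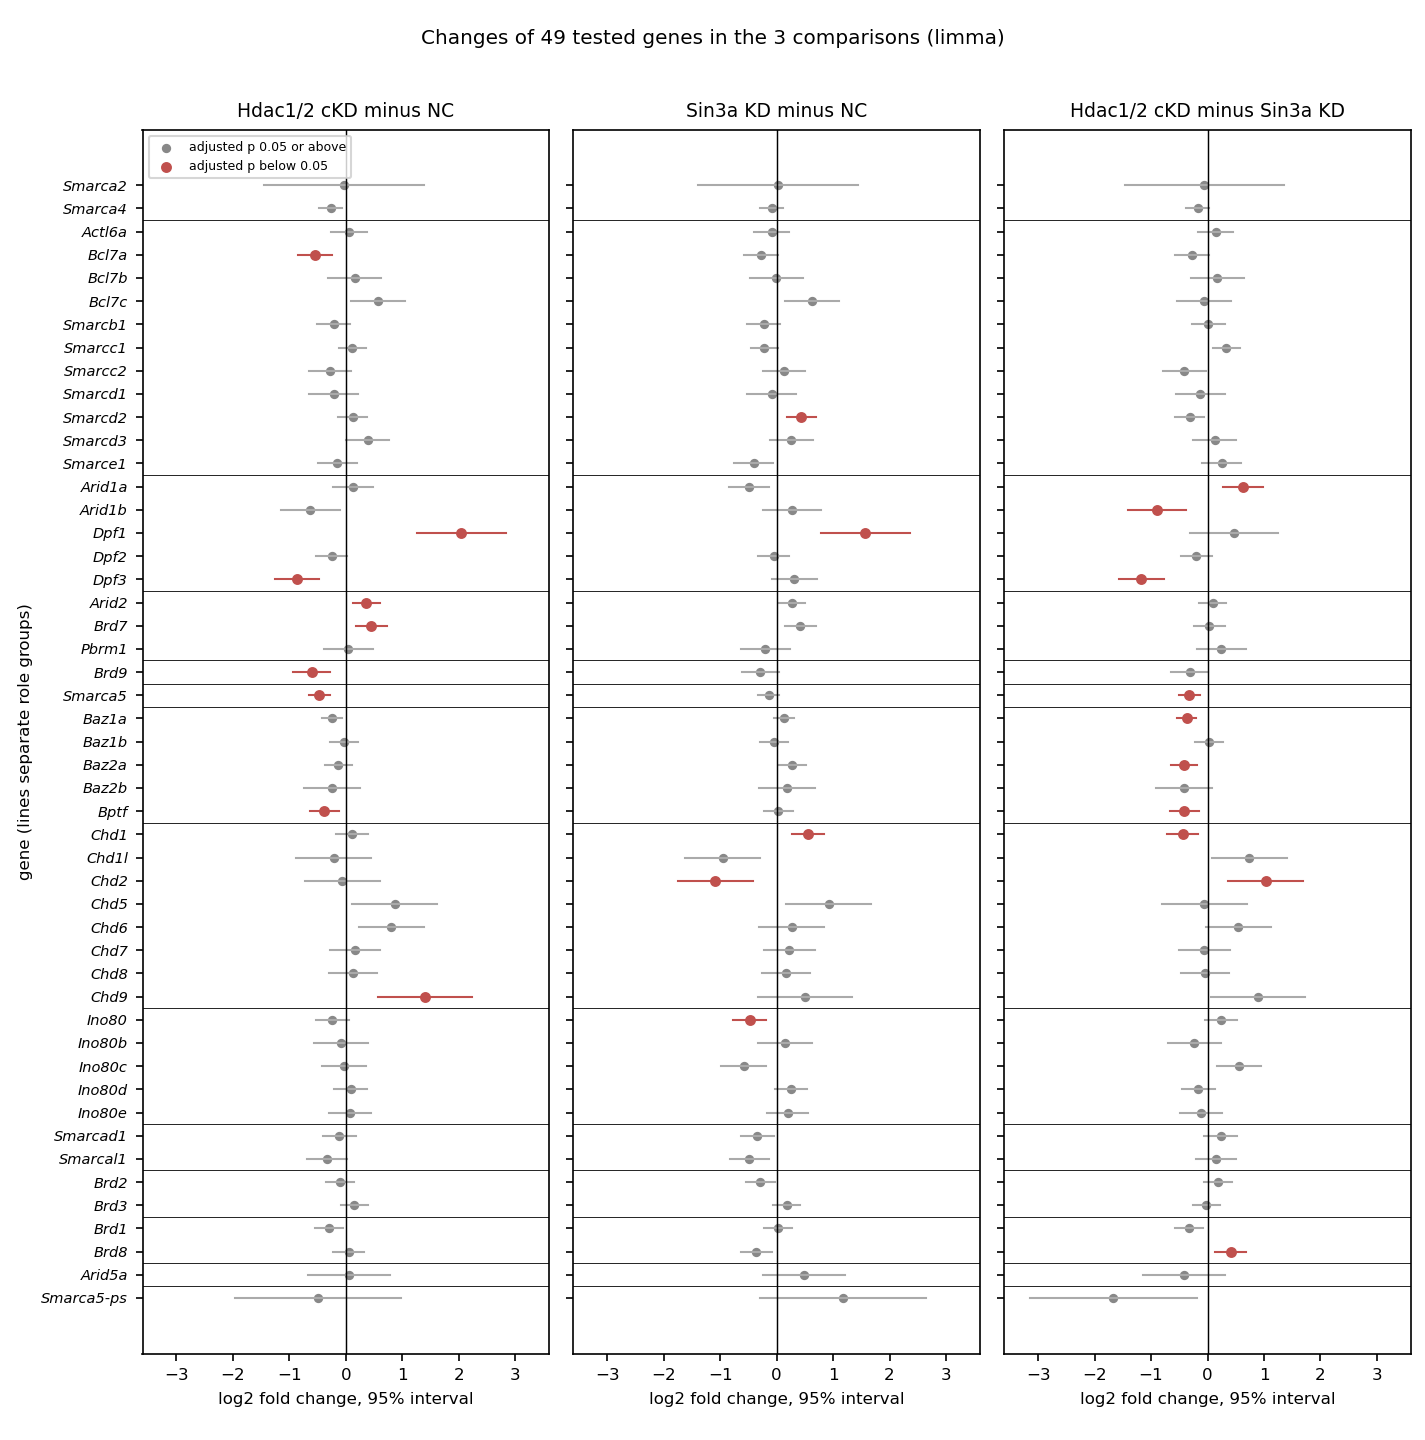
Log2 fold changes of 49 tested members with 95% intervals in the 3 comparisons, grouped by complex, with called genes in red. The called genes number 9, 5 and 10, and they are spread over the complexes.

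The SWI/SNF motors did not pass the test in any comparison. Smarca4, which encodes the ATPase BRG1, had 5954, 6116 and 5731 normalised counts in Hdac1/2 cKD embryos and 6740, 6794 and 6585 in Sin3a KD embryos, against 8235, 6784 and 6506 in NC embryos. All Hdac1/2 cKD libraries lay below all NC and all Sin3a KD libraries, but the NC libraries were spread widely. Its log2 fold change in Hdac1/2 cKD was -0.27 (95% interval -0.47 to -0.06, adjusted p = 0.0802), and without NC replicate 3 it was -0.33 and passed (adjusted p = 0.0374). Smarca2, which encodes the alternative ATPase BRM, was scarce, with 80.0, 55.3 and 31.2 in Hdac1/2 cKD embryos and 14.4, 93.2 and 112 in Sin3a KD embryos, against 52.7, 39.8 and 70.4 in NC embryos. The groups overlapped throughout, and the intervals of its changes (-1.44 to 1.38 for Hdac1/2 cKD against NC, -1.39 to 1.44 for Sin3a KD against NC) are too wide to limit a change.

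Of the 11 measured core subunits that SWI/SNF complexes share, Bcl7a fell in Hdac1/2 cKD embryos and Smarcd2 rose in Sin3a KD embryos, and the other 9 were called in neither. That is 9.09% in each knockdown, beside 15.6% and 7.96% of all genes, and nothing is read about the core as a set. Bcl7a, a small subunit bound near the ATPase, had 967, 845 and 876 normalised counts in Hdac1/2 cKD embryos and 1034, 1043 and 1164 in Sin3a KD embryos, against 1610, 1210 and 1143 in NC embryos. Every Hdac1/2 cKD library was below every other library. The log2 fold change against NC was -0.55 (SE 0.14, adjusted p = 0.0180), and it missed the threshold without Hdac1/2 cKD replicate 2 (0.0732), Hdac1/2 cKD replicate 3 (0.0615) or NC replicate 1 (0.0658). Its paralog Bcl7c had 194, 177 and 189 in Hdac1/2 cKD embryos and 190, 196 and 198 in Sin3a KD embryos, against 127, 102 and 153 in NC embryos. Those 6 knockdown libraries all lay above NC, without passing the test (log2 0.57, adjusted p = 0.0993, and 0.63, adjusted p = 0.0962).

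Smarcd2, one of 3 paralogous subunits that link the complex to transcription factors, had 3716, 3329 and 3525 normalised counts in Sin3a KD embryos, against 2981, 2738 and 2156 in NC embryos. With Sin3a KD libraries all above NC, its log2 fold change was 0.44 (SE 0.12, adjusted p = 0.0391). Hdac1/2 cKD embryos had 2999, 2787 and 2708, which overlapped NC (log2 0.12, adjusted p = 0.541). The Sin3a KD call for Smarcd2 ended when any 1 of 7 libraries was left out (adjusted p between 0.0539 and 0.144), the exceptions being NC replicates 1 and 2. Smarcd1 and Smarcd3, the other paralogs, had log2 fold changes of -0.21 and 0.39 in Hdac1/2 cKD and of -0.08 and 0.26 in Sin3a KD, none of which passed. Smarcd3 shares 48.2% of its exonic bases with Chpf2 on the opposite strand, and no source used here says whether the counting used strand. The remaining core genes, among them the scaffolds Smarcc1 and Smarcc2, the core subunit Smarcb1, the HMG-box subunit Smarce1 and the actin-related Actl6a, had changes between -0.28 and 0.16 in Hdac1/2 cKD and between -0.40 and 0.13 in Sin3a KD.

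The subunits that define canonical BAF, the SWI/SNF form with an Arid1 protein and a Dpf protein, held the Dpf1 rise, the largest member change in either knockdown against NC, and Dpf1 and Dpf3 moved apart in Hdac1/2 cKD. Dpf1, a PHD-finger subunit known from neural BAF complexes, had 86.9, 99.9 and 88.6 normalised counts in Hdac1/2 cKD embryos and 53.8, 71.1 and 73.8 in Sin3a KD embryos, against 24.1, 28.1 and 14.4 in NC embryos. All 6 knockdown libraries lay above the 3 NC libraries, and all Hdac1/2 cKD libraries above all Sin3a KD libraries. Dpf1 rose in both knockdowns. Its mean was 414% of the NC mean in Hdac1/2 cKD (log2 2.05, SE 0.36, adjusted p = 0.00226) and 299% of it in Sin3a KD (log2 1.57, SE 0.36, adjusted p = 0.0193). Between the knockdowns the difference of 0.48 on the log2 scale did not pass (95% interval -0.31 to 1.26, adjusted p = 0.421). The Dpf1 difference from NC was 1.69 within sequencing lane 2 (2 Hdac1/2 cKD libraries and 1 of NC) and 2.54 within lane 3 (1 of each). The Hdac1/2 cKD call held under all 21 alternatives tried (other pseudocounts, filters, scalings and variance models, lane or replicate terms, and each library left out), with a log2 fold change between 1.68 and 2.24. The Sin3a KD call ended without Sin3a KD replicate 1, 2 or 3 (adjusted p = 0.0534, 0.0544 and 0.0820), while without NC replicate 3 it held (log2 1.30, adjusted p = 0.0483).

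Dpf3, known as a heart and muscle BAF subunit whose PHD fingers bind modified histone tails, fell in Hdac1/2 cKD embryos. It had 206, 257 and 259 normalised counts in Hdac1/2 cKD embryos and 609, 531 and 491 in Sin3a KD embryos, against 452, 510 and 358 in NC embryos. The 3 Hdac1/2 cKD libraries were below the 6 others, and Sin3a KD overlapped NC. Its level was 54.7% of the NC mean (log2 -0.86, SE 0.18, adjusted p = 0.00666) and 44.3% of the Sin3a KD mean (log2 -1.17, SE 0.18, adjusted p = 0.00079), whereas the Sin3a KD change of 0.31 did not pass (adjusted p = 0.321). Both Dpf3 calls held under all 21 alternatives, the smallest changes being -0.75 against NC and -1.07 against Sin3a KD. Within lane 2 the difference from NC was -1.15, and within lane 3 it was -0.47. Dpf2, the paralog found in most cell types, had 2077, 2305 and 2386 in Hdac1/2 cKD embryos and 2738, 2636 and 2374 in Sin3a KD embryos, against 2717, 3155 and 2215 in NC embryos. Its groups overlapped (log2 -0.24, adjusted p = 0.222, and -0.05, adjusted p = 0.856), and without NC replicate 3 the Hdac1/2 cKD change was -0.38 and passed (adjusted p = 0.0430). Per kb of transcript Dpf2 was the most abundant of the 3 in each group, and the paralogs called with all 9 libraries were the scarcer Dpf1 and Dpf3.

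The stretches before the starts of Dpf1 and Dpf3, which moved in opposite directions in Hdac1/2 cKD embryos, are shown with that of Smarca5, the other member whose call in this comparison held under every alternative. They are the part of the RefSeq promoter window (GRCm38.p6) that lies upstream of both the RefSeq and the GENCODE gene start, written 5′ to 3′ on the strand of the gene, with CCAAT boxes (CCAAT or ATTGG) and GC boxes (GGGCGG or CCGCCC) in capitals. Dpf1 is read at chr7:29303755-29303950 on the forward strand, Dpf3 at chr12:83487737-83487986 on the reverse strand, and Smarca5 at chr8:80739498-80739709 on the reverse strand.
Dpf1: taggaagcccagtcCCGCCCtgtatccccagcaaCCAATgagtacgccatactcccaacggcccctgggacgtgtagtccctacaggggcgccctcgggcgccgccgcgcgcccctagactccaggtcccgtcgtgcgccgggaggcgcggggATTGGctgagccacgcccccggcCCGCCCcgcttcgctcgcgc
Dpf3: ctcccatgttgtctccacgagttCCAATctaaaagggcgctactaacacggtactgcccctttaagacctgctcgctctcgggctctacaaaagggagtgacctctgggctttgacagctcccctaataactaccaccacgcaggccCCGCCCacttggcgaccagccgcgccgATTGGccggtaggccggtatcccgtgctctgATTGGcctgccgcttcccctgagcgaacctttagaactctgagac
Smarca5: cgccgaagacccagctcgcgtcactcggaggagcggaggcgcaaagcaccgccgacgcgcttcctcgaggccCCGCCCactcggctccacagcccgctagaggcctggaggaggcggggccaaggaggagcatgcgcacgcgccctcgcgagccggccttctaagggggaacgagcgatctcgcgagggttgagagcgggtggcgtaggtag
Dpf1 holds 2 CCAAT boxes and 2 GC boxes in these 196 bases, Dpf3 holds 3 CCAAT boxes and 1 GC box in 250, and Smarca5 holds 1 GC box in 212. Their G and C content is 73.0%, 58.8% and 71.2%. The Dpf1 and Dpf3 stretches both hold the CCAAT box and the GC box. That of Dpf2, only 111 bases by the same rule, holds 0 matches to the motifs searched. The full window of Dpf2 holds 1 CCAAT box.

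A RefSeq promoter was found for 40 of the 52 members. In the full windows of 300 bases, from 250 before to 50 after the start, the GC box GGGCGG was found on either strand in 85% of the 40, in 64.2% of the promoters of 9721 tested genes and in 35.9% of all 27025. For CCAAT the shares were 30%, 38.9% and 37.9%, for the TATA box TATAAA 7.5%, 6.78% and 14.2%, and for the E-box CACGTG 12.5%, 10.2% and 7.24%. The ETS motif CCGGAAG was in 12.5%, 18% and 9.12%, the NRF1 motif GCGCATGCG in 5%, 3.82% and 1.81%, and the YY1 motif AAGATGGCG in 7.5%, 3.2% and 1.49%. Median G and C content was 65.7% in member promoters, 61% in those of tested genes and 52.7% in all. These matches describe letters only, and no binding was measured.

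The Arid1 paralogs, which exclude each other from a complex, differed between the knockdowns in opposite directions. Arid1a had 8557, 8210 and 7920 normalised counts in Hdac1/2 cKD embryos and 4857, 5148 and 6063 in Sin3a KD embryos, against 10380, 6653 and 6124 in NC embryos. NC replicate 1 was the highest of all libraries, and the other NC libraries lay just above Sin3a KD. Hdac1/2 cKD was higher than Sin3a KD by 0.63 on the log2 scale (SE 0.16, adjusted p = 0.0199), a call lost without Hdac1/2 cKD replicate 1 or 2 (0.0708 and 0.0599) or Sin3a KD replicate 1 or 2 (0.0841 and 0.0639). Against NC, Arid1a did not pass in Hdac1/2 cKD (0.13, adjusted p = 0.639) or in Sin3a KD (-0.49, adjusted p = 0.0845), and without NC replicate 3 the Sin3a KD change was -0.64 and passed (0.0433). Arid1b had 941, 875 and 944 in Hdac1/2 cKD embryos and 1755, 1513 and 1885 in Sin3a KD embryos, against 1454, 2153 and 915 in NC embryos. The Hdac1/2 cKD libraries were tight and all below Sin3a KD, while NC replicate 3 fell among them. Hdac1/2 cKD was lower than Sin3a KD (log2 -0.89, SE 0.24, adjusted p = 0.0226), and the call was lost without Hdac1/2 cKD replicate 1, 2 or 3 (0.0653, 0.0797 and 0.0613) or Sin3a KD replicate 1 or 3 (0.0755 and 0.0774). Against NC the Hdac1/2 cKD change was -0.63 (adjusted p = 0.0986), and without NC replicate 3 it was -0.94 and passed (adjusted p = 0.00202).

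**Figure D3:**
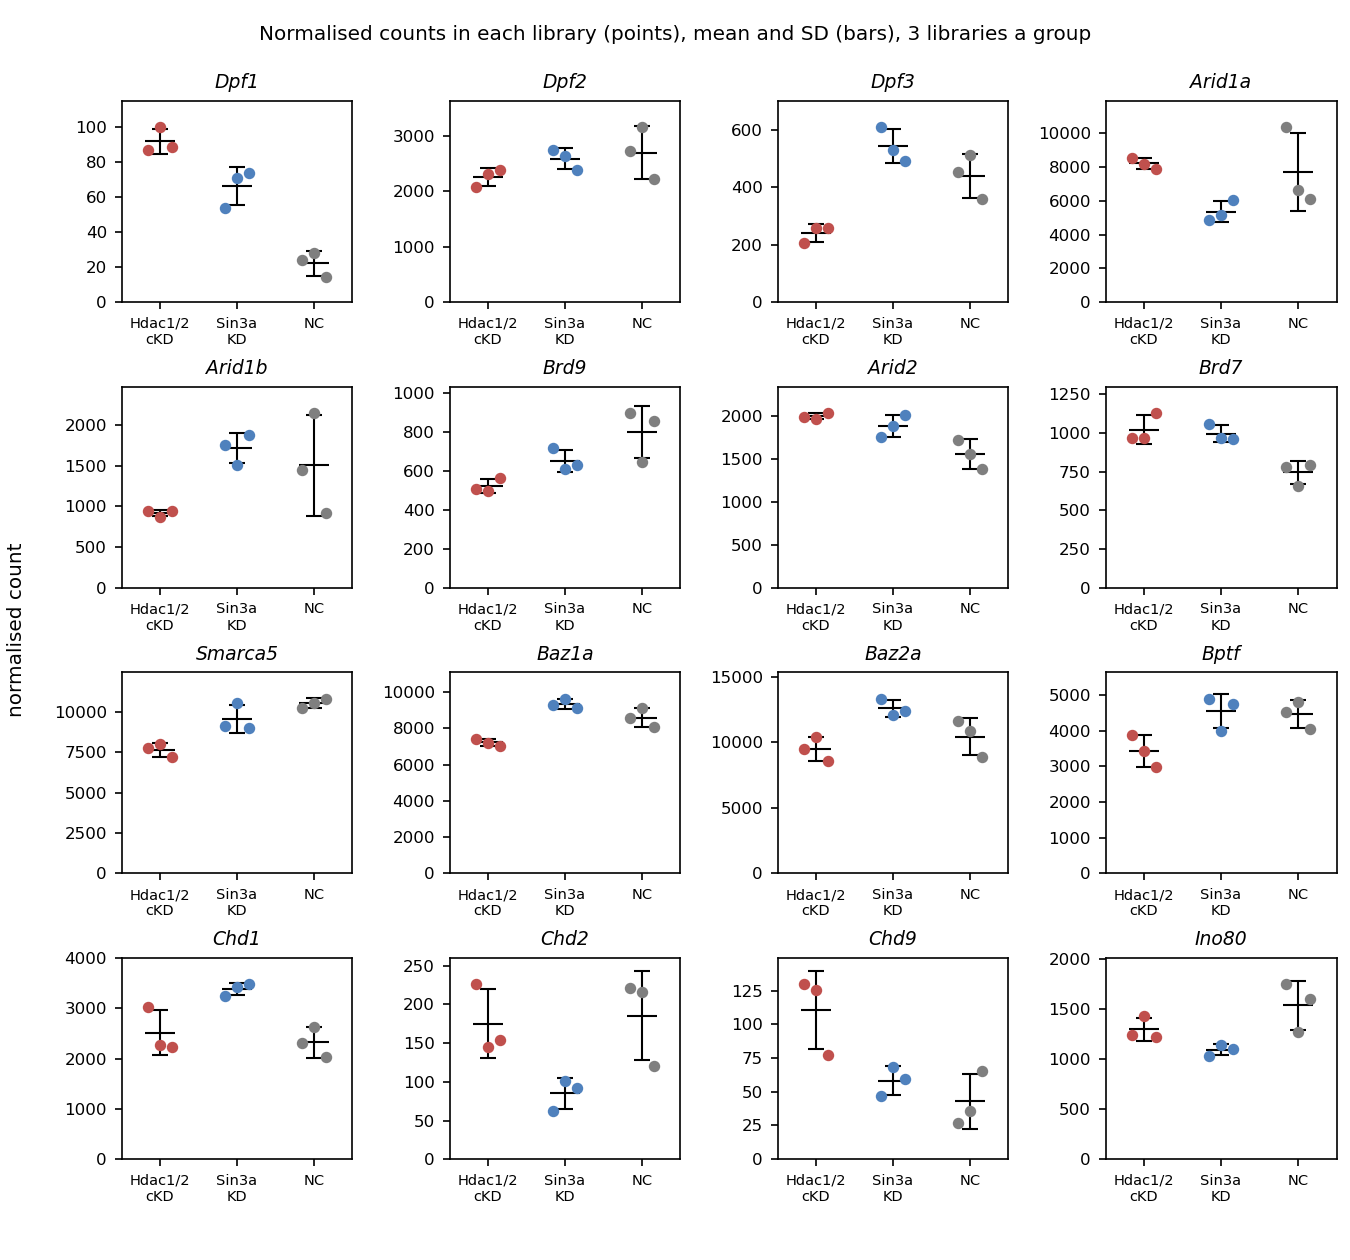
Normalised counts of selected members in each library (points) with the mean and SD of 3 libraries a group (bars), Hdac1/2 cKD, Sin3a KD and NC from left to right, each panel on its own axis from 0. Dpf1 lies highest in Hdac1/2 cKD (91.8 ± 7.09), Dpf3 and Smarca5 lie lowest there (241 ± 30.3 and 7646 ± 417), and the spread of NC is wide for Arid1a and Arid1b.

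Of PBAF, the SWI/SNF form with Arid2, Brd7 and the polybromo protein Pbrm1, Arid2 and Brd7 were called higher in Hdac1/2 cKD embryos. Of all genes 7.81% were, and with 3 genes nothing is read about the complex as a set. Arid2, which takes the place of an Arid1 protein, had 1990, 1966 and 2034 normalised counts in Hdac1/2 cKD embryos and 1748, 1875 and 2003 in Sin3a KD embryos, against 1723, 1558 and 1383 in NC embryos. Its libraries from both knockdowns lay above NC. The Hdac1/2 cKD rise was 0.37 (SE 0.11, adjusted p = 0.0368), and it missed the threshold without Hdac1/2 cKD replicate 1, 2 or 3 (0.0949, 0.0933 and 0.111) or NC replicate 2 or 3 (0.0551 and 0.104). In Sin3a KD the change of 0.27 did not pass (adjusted p = 0.143). Brd7, a bromodomain subunit, had 964, 966 and 1129 in Hdac1/2 cKD embryos and 1058, 969 and 958 in Sin3a KD embryos, against 782, 658 and 794 in NC embryos. All 6 knockdown libraries were above NC, and the rise passed in Hdac1/2 cKD (log2 0.45, SE 0.13, adjusted p = 0.0289) but not in Sin3a KD (0.42, SE 0.13, adjusted p = 0.0621). Between the knockdowns Brd7 differed by 0.03 (95% interval -0.24 to 0.31, adjusted p = 0.901). For Brd7 the Hdac1/2 cKD call ended without Hdac1/2 cKD replicate 1, 2 or 3 (0.0565, 0.0640 and 0.1254) or NC replicate 2 (0.0756). Pbrm1 overlapped between all groups, with means of 768 ± 198 in Hdac1/2 cKD embryos and 639 ± 108 in Sin3a KD embryos, against 736 ± 145 in NC embryos.

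Brd9, the bromodomain subunit that marks non-canonical BAF, fell in Hdac1/2 cKD embryos. It had 508, 494 and 560 normalised counts in Hdac1/2 cKD embryos and 716, 607 and 627 in Sin3a KD embryos, against 897, 647 and 855 in NC embryos. Every Hdac1/2 cKD library was below the 6 others. The log2 fold change was -0.61 (SE 0.15, adjusted p = 0.0170), and the call ended without Hdac1/2 cKD replicate 1 or 2 (0.0571 and 0.0679) or NC replicate 1 (0.0646). In Sin3a KD the change of -0.29 did not pass (adjusted p = 0.279), and the difference between the knockdowns of -0.32 did not either (95% interval -0.65 to 0.01, adjusted p = 0.182). Within lanes 2 and 3 the difference of Hdac1/2 cKD from NC was -0.37 and -0.61. Among SWI/SNF genes with a bromodomain, Brd7 and Brd9 thus passed in opposite directions in Hdac1/2 cKD embryos, and Smarca4, Smarca2 and Pbrm1 did not pass.

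ISWI remodelers, which space nucleosomes, had their ATPase Smarca5 and the large subunit Bptf lower in Hdac1/2 cKD embryos than in either other group. Smarca5, which encodes SNF2H and is needed for growth of the early mouse embryo, had 7753, 7999 and 7186 normalised counts in Hdac1/2 cKD embryos and 9165, 10590 and 8996 in Sin3a KD embryos, against 10260, 10560 and 10840 in NC embryos. The Hdac1/2 cKD libraries lay below the 6 others, and Sin3a KD overlapped NC. Smarca5 fell to 72.5% of its NC mean (log2 -0.47, SE 0.09, adjusted p = 0.00341), a call that held under all 21 alternatives with log2 fold changes of -0.50 to -0.35. Within lanes 2 and 3 the difference was -0.42 and -0.59. It was also lower than in Sin3a KD (log2 -0.32, SE 0.09, adjusted p = 0.0221), which was lost without Hdac1/2 cKD replicate 1 or 3 (0.0609 and 0.0984) or Sin3a KD replicate 2 (0.0876). The processed pseudogene Smarca5-ps, which could take some of its reads, had between 4.94 and 44.2 normalised counts and was called in no comparison. How alike the 2 sequences are was not measured. Smarca1, the paralogous ATPase SNF2L, lay under the filter, with 6.47, 3.03 and 6.16 in Hdac1/2 cKD embryos and 0, 4.12 and 0 in Sin3a KD embryos, against 1.27, 0 and 0 in NC embryos.

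Bptf, the largest subunit of the ISWI complex NURF and the carrier of its bromodomain, had 3885, 3434 and 2968 normalised counts in Hdac1/2 cKD embryos and 4899, 4002 and 4750 in Sin3a KD embryos, against 4513, 4815 and 4051 in NC embryos. The Hdac1/2 cKD libraries were all the lowest, the other groups overlapping. Against NC its log2 fold change was -0.38 (SE 0.12, adjusted p = 0.0437), lost when all libraries were scaled to equal totals (0.153) and without Hdac1/2 cKD replicate 2 or 3 (0.105 and 0.183), Sin3a KD replicate 1 or 3 (0.0549 and 0.0556) or NC replicate 1 or 2 (0.0938 and 0.108). Against Sin3a KD the Bptf difference was -0.41 (SE 0.12, adjusted p = 0.0298), lost without Hdac1/2 cKD replicate 2 or 3 (0.0791 and 0.133) or Sin3a KD replicate 1 or 3 (0.122 and 0.0970). The ISWI partners Baz1a and Baz2a were also lower in Hdac1/2 cKD than in Sin3a KD embryos. Baz1a, the ACF1 subunit, had 7438, 7209 and 7046 in Hdac1/2 cKD embryos and 9280, 9647 and 9134 in Sin3a KD embryos, against 8584, 9097 and 8063 in NC embryos. NC lay between the knockdowns without touching either. The difference between the knockdowns was -0.37 (SE 0.08, adjusted p = 0.00656) and held when any library was left out, but against NC neither knockdown passed (-0.25, adjusted p = 0.0564, and 0.13, adjusted p = 0.370), except that Hdac1/2 cKD passed without NC replicate 3 (-0.29, adjusted p = 0.0349). Baz2a, the NoRC subunit that silences ribosomal genes, had 9500, 10420 and 8537 in Hdac1/2 cKD embryos and 13330, 12070 and 12380 in Sin3a KD embryos, against 11600, 10840 and 8844 in NC embryos. Sin3a KD was the highest group, with Hdac1/2 cKD overlapping NC. The knockdowns differed by -0.41 (SE 0.11, adjusted p = 0.0188), lost without Hdac1/2 cKD replicate 1 or 3 (0.0574 and 0.0891) or Sin3a KD replicate 1 (0.0822). Baz1b, the WSTF subunit, overlapped between all groups (means of 2674 ± 246, 2623 ± 107 and 2728 ± 348 in Hdac1/2 cKD, Sin3a KD and NC embryos), and so did Baz2b.

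Among the 8 CHD ATPases measured, which apart from Chd1l carry paired chromodomains, Chd9 rose in Hdac1/2 cKD embryos, and in Sin3a KD embryos Chd1 rose and Chd2 fell. These are 12.5% and 25% of the 8, beside 15.6% and 7.96% of all genes, and nothing is read about the family as a set. Chd9 had 130, 125.1 and 77.6 normalised counts in Hdac1/2 cKD embryos and 46.8, 68.6 and 59.3 in Sin3a KD embryos, against 27.1, 36.1 and 65.7 in NC embryos. The Hdac1/2 cKD libraries were the 3 highest, and NC replicate 3 lay among Sin3a KD. The rise to 258% of the NC mean (log2 1.41, SE 0.39, adjusted p = 0.0249) was 1.76 without NC replicate 3 (adjusted p = 0.00780), and was 0.24 within lane 3, where that library is the only NC one, and 1.79 within lane 2. The call was lost without Hdac1/2 cKD replicate 1 or 2 (0.0967 and 0.0963) or NC replicate 1 or 2 (0.0852 and 0.0501). At 0.90 the difference between the knockdowns did not pass (95% interval 0.07 to 1.73, adjusted p = 0.133).

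Chd1, which keeps chromatin open in mouse embryonic stem cells, had 3247, 3436 and 3483 normalised counts in Sin3a KD embryos, against 2309, 2635 and 2027 in NC embryos. Hdac1/2 cKD embryos had 3039, 2280 and 2237, overlapping NC. Chd1 rose in Sin3a KD to 146% of the NC mean (log2 0.55, SE 0.13, adjusted p = 0.0218), and the call was lost without Sin3a KD replicate 1, 2 or 3 (0.0643, 0.0535 and 0.0865) or NC replicate 1 or 3 (0.0589 and 0.0666). Hdac1/2 cKD was lower than Sin3a KD for this gene (log2 -0.44, SE 0.13, adjusted p = 0.0332), lost without Hdac1/2 cKD replicate 2 or 3 (0.133 and 0.132) or Sin3a KD replicate 1, 2 or 3 (0.0696, 0.0854 and 0.0960). Chd2, a close relative of Chd1 that places histone variants at active genes, had 62.8, 102 and 91.5 in Sin3a KD embryos, against 221, 216 and 120 in NC embryos. In Hdac1/2 cKD embryos it had 226, 145 and 154. Sin3a KD was below both other groups, at 46% of the NC mean (log2 -1.09, SE 0.31, adjusted p = 0.0456), and Hdac1/2 cKD was above Sin3a KD by 1.03 (SE 0.31, adjusted p = 0.0346). Within lane 3 these differences were -0.31 and 0.67. Among single libraries, the Chd2 call against NC survived the omission of NC replicate 3 (-1.38, adjusted p = 0.0210), and leaving out any 1 of the other 8 libraries ended it (adjusted p between 0.0527 and 0.170), as did equal totals (0.0628). The call between the knockdowns ended without Hdac1/2 cKD replicate 1, 2 or 3 (0.145, 0.0567 and 0.0627) or Sin3a KD replicate 1 or 3 (0.140 and 0.0654). Chd2 shares 18.4% of its exonic bases with 1810026B05Rik on the same strand, so some of its reads could belong to that gene.

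The other CHD genes were not called in any comparison. Chd5, known from neurons and testis, had 88.3, 96.6 and 124 normalised counts in Hdac1/2 cKD embryos and 117, 73.8 and 138 in Sin3a KD embryos, against 85.4, 46.6 and 42.4 in NC embryos. Its Hdac1/2 cKD libraries lay above NC and its Sin3a KD libraries overlapped NC, and neither change passed (log2 0.87, adjusted p = 0.115, and 0.92, adjusted p = 0.124). Chd6 had 956, 549 and 545 in Hdac1/2 cKD embryos and 466, 583 and 340 in Sin3a KD embryos, against 351, 299 and 503 in NC embryos. Hdac1/2 cKD lay above NC (0.81, adjusted p = 0.0568), and the change was 1.02 and passed without NC replicate 3 (adjusted p = 0.0270). Chd1l, a repair ATPase with a macrodomain in place of chromodomains, had 102, 125.2 and 131 in Hdac1/2 cKD embryos and 54.9, 69.9 and 92.5 in Sin3a KD embryos, against 101, 134 and 194 in NC embryos. Sin3a KD lay below both other groups without passing (-0.95 against NC, adjusted p = 0.0752). Chd7, the CHARGE syndrome gene, and Chd8, a regulator of the Wnt pathway, overlapped between all groups. Chd7 had 2066, 2566 and 2348 in Hdac1/2 cKD embryos and 2440, 2452 and 2352 in Sin3a KD embryos, against 2299, 2802 and 1368 in NC embryos. Chd8 had 1307, 1362 and 1377 in Hdac1/2 cKD embryos and 1198, 1575 and 1446 in Sin3a KD embryos, against 1315, 1687 and 860 in NC embryos. For both genes NC replicate 3 was the lowest library.

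In the INO80 family, which slides nucleosomes in transcription and DNA repair, the ATPase gene Ino80 fell in Sin3a KD embryos. It had 1032, 1137 and 1101 normalised counts in Sin3a KD embryos, against 1744, 1263 and 1592 in NC embryos, with 1236, 1428 and 1218 in Hdac1/2 cKD embryos. Sin3a KD was the lowest group and Hdac1/2 cKD overlapped NC. The Sin3a KD change was -0.48 (SE 0.13, adjusted p = 0.0419), and among the libraries its call survived only the omission of NC replicate 2. Leaving out any 1 of the other 8 gave an adjusted p between 0.0563 and 0.146, and equal totals gave 0.0714. Ino80c, a small subunit of the same complex, had 654, 694 and 489 in Sin3a KD embryos, against 1045, 692 and 1039 in NC embryos, with 827, 862 and 991 in Hdac1/2 cKD embryos. Hdac1/2 cKD lay above Sin3a KD (0.56, adjusted p = 0.0518), and Sin3a KD overlapped NC (-0.58, adjusted p = 0.0672). Ino80b, Ino80d and Ino80e overlapped between all groups, with log2 fold changes between -0.08 and 0.09 in Hdac1/2 cKD and between 0.15 and 0.25 in Sin3a KD. The exons of Ino80e share 14.4% of their bases with Doc2a on the opposite strand.

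Both remaining SNF2-type ATPases were lower in Sin3a KD embryos without passing. Smarcad1, which acts in heterochromatin and repair, had 1079, 1531 and 1204 normalised counts in Hdac1/2 cKD embryos and 1165, 1069 and 985 in Sin3a KD embryos, against 1318, 1389 and 1369 in NC embryos. Smarcal1, which remodels stalled replication forks, had 316, 304 and 335 in Hdac1/2 cKD embryos and 309, 271 and 281 in Sin3a KD embryos, against 384, 438 and 384 in NC embryos. For Smarcal1 all 6 knockdown libraries were below NC (-0.33, adjusted p = 0.190, and -0.48, adjusted p = 0.0836). Arid5a overlapped between all groups (77.5 ± 3.28 in NC embryos), and Arid5b was at 0 in all knockdown libraries, against 7.13, 0 and 3.11 in NC embryos.

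The BET genes Brd2 and Brd3, whose proteins bind acetylated histones through paired bromodomains and promote elongation, passed in no comparison. Brd2 had 7495, 7507 and 6327 normalised counts in Hdac1/2 cKD embryos and 6392, 6671 and 5638 in Sin3a KD embryos, against 8989, 7196 and 6791 in NC embryos. Brd3 had 3846, 3630 and 3119 in Hdac1/2 cKD embryos and 3693, 3232 and 3821 in Sin3a KD embryos, against 3450, 3042 and 3012 in NC embryos. For Brd2 all Sin3a KD libraries were below NC, and for Brd3 the groups overlapped. The 95% intervals in Hdac1/2 cKD were -0.35 to 0.15 for Brd2 and -0.08 to 0.39 for Brd3, and neither passed (adjusted p = 0.611 and 0.383). In Sin3a KD they were -0.54 to -0.04 and -0.06 to 0.41 (adjusted p = 0.149 and 0.350). Each interval leaves out a change of 1 on the log2 scale in either direction.

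Brd1 and Brd8 carry bromodomains into acetyltransferase complexes. Brd8, a subunit of the TIP60 complex, had 1346, 1384 and 1245 normalised counts in Hdac1/2 cKD embryos and 862, 1103 and 1038 in Sin3a KD embryos, against 1423, 1262 and 1159 in NC embryos. Sin3a KD lay below both other groups. Hdac1/2 cKD was higher than Sin3a KD by 0.41 (SE 0.13, adjusted p = 0.0420), lost without Hdac1/2 cKD replicate 1, 2 or 3 (0.115, 0.140 and 0.0655) or Sin3a KD replicate 1 or 3 (0.185 and 0.0737). Within lane 3 the Brd8 difference was 0.22, and with lane as a factor its adjusted p was 0.412. Brd1, which joins HBO1 complexes, had 2727, 2582 and 2529 in Hdac1/2 cKD embryos and 3439, 2998 and 3420 in Sin3a KD embryos, against 3732, 3261 and 2737 in NC embryos. Hdac1/2 cKD was the lowest group (-0.30 against NC, adjusted p = 0.0995), and without NC replicate 3 the change was -0.42 and passed (adjusted p = 0.0205).

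Leaving out NC replicate 3 thus moved the members' counts. For Hdac1/2 cKD against NC, 4 were then higher and 10 lower, with Arid1b, Baz1a, Brd1, Chd6, Dpf2 and Smarca4 gained and Arid2 lost. That is 28% of tested members, beside 14.5% of all genes. In Sin3a KD against NC, 1 was higher and 2 were lower, with Arid1a gained and Chd1, Ino80 and Smarcd2 lost, or 6% beside 5.09% of all genes. In Hdac1/2 cKD against Sin3a KD, 5 were higher and 9 lower, with Brd1, Ino80c, Smarcc1 and Smarcd2 gained, or 28% beside 20.6% of all genes. Lanes differed between groups: Hdac1/2 cKD was run on lanes 2, 2 and 3, Sin3a KD on lanes 4, 3 and 3, and NC on lanes 5, 2 and 3. All 9 members called in Hdac1/2 cKD against NC kept their direction within lane 2 and within lane 3, as did the 5 of Sin3a KD against NC and the 10 of Hdac1/2 cKD against Sin3a KD within lane 3. The compared groups overlapped for none of these calls, so their directions within a lane were bound to hold and test nothing about lane. With lane as a factor, none of the 5 Sin3a KD calls was kept (adjusted p = 0.0658 for Chd1, 0.515 for Chd2, 0.0927 for Dpf1, 0.272 for Ino80 and 0.0661 for Smarcd2). Equal totals and TMM scaling left the direction of every called member as it was. In the fit with lane the libraries alone on their lanes, NC replicate 1 and Sin3a KD replicate 1, add nothing to these differences. Leaving them out with no lane term also ended the 5 calls (adjusted p = 0.141 for Chd1, 0.344 for Chd2, 0.103 for Dpf1, 0.306 for Ino80 and 0.122 for Smarcd2).

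The 24 member calls differed in how many of the 21 alternatives they held under. Against NC, the Hdac1/2 cKD calls held under 21 for Dpf1, Dpf3 and Smarca5, under 15 for Bcl7a, Brd9 and Chd9, under 14 for Brd7 and under 11 for Arid2 and Bptf. The Sin3a KD calls held under 14 for Dpf1, 13 for Chd1, 10 for Smarcd2, 6 for Chd2 and 5 for Ino80. Between the knockdowns the calls held under 21 for Dpf3, 20 for Baz1a, 16 for Arid1a and Baz2a, 15 for Bptf and Smarca5, 14 for Chd1, 13 for Arid1b and Chd2, and 10 for Brd8.

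Levels were set side by side per kb of the longest protein-coding transcript in GENCODE vM21. In NC embryos the most abundant members were Smarca5 at 1726 ± 47.5 normalised counts per kb, Brd2 at 1645 ± 251, Baz1a at 1387, Baz2a at 1235 and Smarca4 at 1125. The spreads of Smarca5 and Brd2 overlap, so their order in NC embryos is not resolved. In Hdac1/2 cKD embryos Brd2 stood first at 1527 ± 146, with Smarca5 second at 1251 ± 68.2, and in Sin3a KD embryos Smarca5 at 1568 ± 143, Baz1a at 1512 ± 42.7 and Baz2a at 1492 ± 77.8 lay within their spreads of each other. Within paralog sets, Smarca4 stood far above Smarca2 (9.17 per kb in NC embryos), Smarca5 far above Smarca1 (0.089), Dpf2 (813) above Dpf3 (140) and Dpf1 (9.61), and Arid1a (943) above Arid1b (133). The lowest tested CHD gene was Chd9, at 3.58 per kb in NC embryos.

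**Figure D4:**
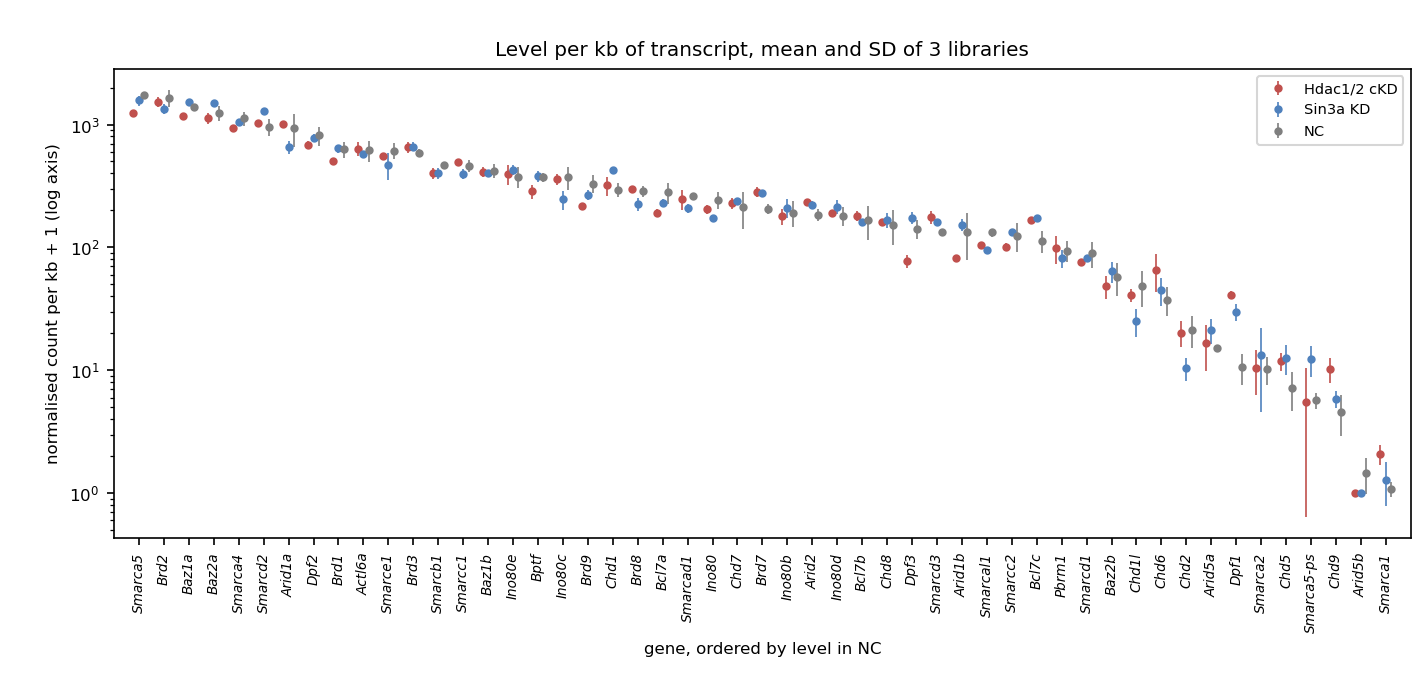
Level of the members shown per kb of transcript plus 1, on a log axis, as mean and SD of 3 libraries in Hdac1/2 cKD, Sin3a KD and NC embryos, ordered by the NC level. In NC embryos the levels run down to 0.45 for Arid5b and 0.089 for Smarca1, with Smarca5 highest at 1726.

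Of 90 partner symbols outside the naming rule, 87 were found and 85 were tested. They cover SWI/SNF, ISWI and INO80 partners, SRCAP and TIP60 genes, other SNF2-type ATPases, other bromodomain genes and elongation partners of BET proteins. In Hdac1/2 cKD embryos 11 rose and 5 fell (18.8% called, beside 15.6% of all genes), in Sin3a KD embryos 3 rose and 4 fell (8.24% beside 7.96%), and in Hdac1/2 cKD against Sin3a KD 16 were higher and 4 lower (23.5% beside 17.3%). Nothing is read from these shares about the partners as a set. Among 7 tested SWI/SNF partners, Ss18l1, the neural partner of BAF, had 237, 176 and 151 normalised counts in Hdac1/2 cKD embryos and 107, 96.4 and 73.9 in Sin3a KD embryos, against 76.1, 77.1 and 51.3 in NC embryos. It rose in Hdac1/2 cKD with libraries all above the others (log2 1.45, adjusted p = 0.00497). Phf10, a PBAF subunit, rose as well (0.57, adjusted p = 0.0283). Actb, whose actin is a subunit of BAF and INO80, fell in Sin3a KD (-0.77, adjusted p = 0.0035) while its Hdac1/2 cKD change was -0.02 (SE 0.12, adjusted p = 0.928).

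In Hdac1/2 cKD 25% of the ISWI partners, 11.1% of the INO80 partners and 18.8% of the SRCAP and TIP60 genes were called. For the other SNF2-type ATPases the share was 14.3%, and for all genes tested 15.6% (7.96% in Sin3a KD). With lists this small nothing is read about them as sets. Of 8 ISWI partners, 2 fell in Hdac1/2 cKD, Cecr2 (-0.61, adjusted p = 0.0261), a bromodomain partner of the ISWI ATPases, and Pole3 (-0.41, adjusted p = 0.0342), a histone-fold subunit of CHRAC. Of 9 INO80 partners, Yy1 fell in Hdac1/2 cKD (-0.30, adjusted p = 0.0406). Of 16 SRCAP and TIP60 genes, the scaffold Trrap rose in Hdac1/2 cKD (0.42, adjusted p = 0.0150), Epc2 and Mbtd1 fell (-0.74, adjusted p = 0.00571, and -0.45, adjusted p = 0.0488), and the acetyltransferase gene Kat5 fell in Sin3a KD (-0.70, adjusted p = 0.0131). Of 14 other SNF2-type ATPases, the NuRD motors Chd4 and Chd3 rose in Hdac1/2 cKD. Chd4 had 8679, 9208 and 7711 in Hdac1/2 cKD embryos and 5712, 5638 and 5585 in Sin3a KD embryos, against 7160, 6094 and 5705 in NC embryos, with Hdac1/2 cKD above all others (0.44, adjusted p = 0.0108). Chd3 was scarcer and changed more (1.52, adjusted p = 0.0160).

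Of 23 other bromodomain genes tested, 4 rose in Hdac1/2 cKD, and in Sin3a KD 3 rose and 2 fell. That is 17.4% beside 15.6% of all genes in Hdac1/2 cKD, and 21.7% beside 7.96% in Sin3a KD. For the elongation partners of BET proteins given below the Hdac1/2 cKD share was 25%. Nothing is read from these shares about the lists as sets. Kmt2a, the methyltransferase MLL, had 271, 288 and 330 normalised counts in Hdac1/2 cKD embryos and 71.7, 103 and 113 in Sin3a KD embryos, against 52.5, 48.3 and 88.0 in NC embryos. Its Hdac1/2 cKD libraries stood apart from the 6 others (log2 2.27, SE 0.29, adjusted p = 0.000294), which is more than any tested member changed in this comparison. Phip rose in both knockdowns (0.73, adjusted p = 0.00633, and 0.88, adjusted p = 0.00586), Zmynd8 rose in Hdac1/2 cKD (0.61, adjusted p = 0.0199), and in Sin3a KD Brpf3 fell (-0.72, adjusted p = 0.00957) while Brwd3 rose (0.56, adjusted p = 0.0315). Among 8 elongation partners of BET proteins, Hexim1, the P-TEFb inhibitor, and Whsc1l1, the methyltransferase NSD3, rose in Hdac1/2 cKD (0.78, adjusted p = 0.00768, and 0.63, adjusted p = 0.00626), and none passed in Sin3a KD. When any library was left out, the Hdac1/2 cKD calls of Ss18l1, Epc2, Kmt2a, Phip, Hexim1 and Whsc1l1 and the Sin3a KD calls of Actb, Phip and Brpf3 held. Without the libraries alone on their lanes, the Sin3a KD calls of Actb, Phip and Brpf3 ended (adjusted p = 0.0750, 0.0783 and 0.125). Those of Kat5 and Brwd3 ended too (0.115 and 0.144). With lane as a factor the Sin3a KD calls of Brpf3, Kat5 and Brwd3 ended (0.168, 0.108 and 0.125), while Actb and Phip kept theirs. A lane factor also ended the Hdac1/2 cKD calls of Phf10, Cecr2, Pole3, Yy1 and Mbtd1. The call of Chd4 was lost without Hdac1/2 cKD replicate 2 (adjusted p = 0.0609), those of Trrap and Chd3 without Hdac1/2 cKD replicate 1 or 3 (0.0521 and 0.0701, and 0.0620 and 0.0604), that of Zmynd8 without Hdac1/2 cKD replicate 1 or NC replicate 2 (0.0857 and 0.0550), and that of Kat5 without Sin3a KD replicate 3 (0.0545). For Brwd3 the call was lost without Sin3a KD replicate 1 or 3 or NC replicate 3 (0.112, 0.114 and 0.0722), and for Cecr2 without Hdac1/2 cKD replicate 1, 2 or 3 or NC replicate 1 (0.0693, 0.0870, 0.0702 and 0.0646). Phf10, Pole3, Yy1 and Mbtd1 lost theirs without any of 5, 6, 7 and 7 libraries, with adjusted p up to 0.105, 0.130, 0.135 and 0.194.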

How the data were processed

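Polyadenylated RNA was sequenced from 9 pools of 60 embryos. Salmon counted the reads per transcript and DESeq2 normalised the counts, with GRCm38 as the build, per the labels and the submitters' processing notes. For both tools the version is not given in the sources used here. What the authors deposited is a table of signal values, normalised counts per gene. In each library 64.2% to 77.0% of the small values came within 0.1 of whole steps, so reads could not be recovered and no count model was used. The line without a gene name held 0.00543% to 0.00896% of a library and was left out.

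Genes reaching 10 in 3 or more of the 9 libraries were tested on log2(value + 1), which understates changes of low genes, with limma 3.58.1 in R 4.3.3. All 9 libraries were fitted with 1 mean per group (6 residual degrees of freedom, trended and robust variances), with Benjamini-Hochberg adjustment over the 13343 genes tested. Sequences and motifs came from RefSeq promoters (GRCm38.p6), coordinates from GENCODE vM21. Values in every library are given for members called in a comparison and for ATPase and BET genes, except 1 member that is counted in the totals but not reported here, and up to 3 called genes per partner list are named. The members, lists and examples were chosen with earlier results of these data known. In all, 21 alternatives covered pseudocount, filter, scaling, variance model, lane, replicate block and each library left out.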

Additional observations from a re-analysis of the deposited data

How the results depend on the processing

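Of the 24 member calls, 4 held under all 21 alternatives (Dpf1, Dpf3 and Smarca5 in Hdac1/2 cKD against NC and Dpf3 in Hdac1/2 cKD against Sin3a KD), and 5 held when any library was left out (these and Baz1a in Hdac1/2 cKD against Sin3a KD). No Sin3a KD call against NC held under all of them. No called member changed its direction. The causes of the differences below were not tested.

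For Hdac1/2 cKD against NC (2083 genes called, 4 members higher and 5 lower), variances with neither trend nor robust fitting gave 1369 genes, 2 and 2. Leaving out the libraries alone on their lanes gave 1318, 2 and 2. A fit of these groups alone gave 1724 genes and 2 members higher, array weights 2284 and 9 lower, and lane as a factor 1450 and 3 lower. Leaving out single libraries gave 1271 to 2170 genes, 1 to 5 members higher and 2 to 10 lower. For Sin3a KD against NC (1062 genes, 3 and 2), the counts were 36, 0 and 0 without trend, 611, 1 and 0 in a fit of these groups alone, 94, 0 and 0 with lane as a factor and 51, 0 and 0 once the libraries alone on their lanes were left out. Equal totals gave 1171 genes, 6 higher and 0 lower, no filter 911 and 0 lower, TMM scaling 1017 and 1 lower, and array weights 1281 and 5 lower. Single libraries left out gave 337 to 1538 genes, 0 to 3 higher and 0 to 2 lower. For Hdac1/2 cKD against Sin3a KD (2304 genes, 3 and 7), array weights gave 3541 genes and 7 higher, lane as a factor 1002 genes, and leaving out the libraries alone on their lanes 1384 genes, 1 and 2. Without trend the counts were 1617 genes, 0 and 1, in a fit of these groups alone 3077 genes and 6 higher, and with a mean of at least 50 or equal totals 2381 and 2334 genes, each with 5 higher. Single libraries left out gave 1426 to 2748 genes, 0 to 5 higher and 2 to 9 lower.

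Equal totals moved the median of all genes by 0.11, 0.09 and 0.02 on the log2 scale in the 3 comparisons, and the share of calls that were higher was 67.2% against 50% in Hdac1/2 cKD against NC, 63.5% against 45.2% in Sin3a KD against NC and 52.4% against 49.2% between the knockdowns. Whether samples with the same replicate number were paired is not known from the labels. Their deviations correlated at -0.0193 to 0.0581. In Hdac1/2 cKD against NC each Hdac1/2 cKD sample correlated best with its own number (0.0342, 0.0175 and 0.0415). In the other comparisons this did not hold for every sample. A replicate block gave 2140, 1046 and 2372 genes called, and in Sin3a KD against NC 1 member lower. Smarca1 and Arid5b were too scarce at this depth to pass the filter. The interval of Smarca2 includes changes of 1 on the log2 scale in either direction in all 3 comparisons, and the part of depth in it was not tested.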
